A study of Mus musculus with 57 samples.

Results

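The genes that encode the proteins of the cytosolic ribosome were followed through 12 groups of mouse prefrontal cortex. They were taken by symbol: names starting with Rpl or Rps and a digit, Rplp0 to Rplp2, Rpsa and Fau, protein-coding genes only. Rps6 kinases, symbols with -ps, paralogs named with a final l (Rpl22l1, Rpl36al, Rpl3l, Rpl7l1 and Rps27l) and Rpl17 were left out by the rule, and Rps19bp1, whose product binds a ribosomal protein but is not one, was set apart. This gave 78 members of 18088 genes listed, 42 of the large subunit, 33 of the small subunit and 3 of the P stalk. All 78 were among the 18026 genes tested.

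The mice were C57BL/6J, heterozygous for the Shank3 delta C allele (HT) or wild type (WT), of both sexes. Shank3 is a scaffold of excitatory synapses, linked to autism in people. Lithium, fluoxetine or vehicle reached the pups through the mother's milk from postnatal day 3 to day 24, for 3 weeks, and tissue was taken on day 25. The libraries analysed numbered 4 HT lithium males, 5 HT lithium females, 5 each of HT fluoxetine males and females, 3 HT vehicle males, 5 HT vehicle females, 5 WT lithium males, 4 WT lithium females, 5 each of WT fluoxetine males and females, and 5 each of WT vehicle males and females. The labels used here give neither doses nor which libraries come from the same animal or litter, so p-values measure the spread between these samples only.

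Each library held 22984556 to 35969254 reads assigned to genes. Values are normalised read counts, the reads of a gene divided by 1 size factor per library. The members took a median of 0.837% of reads, from 0.684% to 1.12% over the 56 libraries, and the 95% Wilson interval of a library's share was at most 0.00412 percentage points to each side, for counting error only. The log2 change of the gene-level Shank3 value in HT against WT vehicle mice was 0.05 ± 0.09 (adjusted p = 0.915). The value rose under lithium in HT (0.34 ± 0.09, adjusted p = 0.0127), and HT lithium males, at 9949 to 11196.5, did not overlap with WT lithium males, at 6565 to 8588 (0.43 ± 0.13, adjusted p = 0.287). The call in HT ended with a correction for GC content and transcript length. It also ended without 2 libraries that stand apart, named below. The lithium effect was not called different between the genotypes (0.29 ± 0.13, limma-trend, adjusted p = 0.471). The Shank3 value sums reads inside and outside the altered part of the gene and so does not check the genotype labels. The 8 markers of cortical excitatory neurons summed to between 36298 and 79151 normalised read counts a library and none was at 0, as fits the labelled cortex. Markers of neighbouring tissue varied widely, with sums of 239 to 14785 for 5 olfactory bulb genes and 108 to 54023 for 9 choroid plexus genes.

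The ribosome reads messenger RNA into protein: the small subunit holds the message and the decoding site, the large subunit joins amino acids, and the P stalk (Rplp0, Rplp1 and Rplp2) recruits the factors that drive elongation. Its proteins are made in near-equal amounts from separate genes, and unassembled ones are degraded. Their messages usually begin with a C followed by a run of pyrimidines, the terminal oligopyrimidine or TOP start, through which mTOR and Larp1 control their translation. In neurons ribosomal proteins are also made in dendrites and axons.

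The starts of several members that carry the results below show how far the annotated start bears that motif. Each window holds 15 bases before and 15 bases from the RefSeq start (build GRCm38.p6), read along the gene. Capitals mark the pyrimidine run where the first transcribed base is C and at least 4 pyrimidines follow, and a window without capitals has no such run at that base.
Rps6, chr4:86857353-86857382, minus strand: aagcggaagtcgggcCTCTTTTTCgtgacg
Rpl35, chr2:39005117-39005146, minus strand: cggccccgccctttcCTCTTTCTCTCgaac
Rpl14, chr9:120571502-120571531, plus strand: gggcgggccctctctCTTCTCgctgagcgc
Rplp2, chr7:141447636-141447665, plus strand: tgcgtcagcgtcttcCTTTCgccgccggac
Rps10, chr17:27635230-27635259, minus strand: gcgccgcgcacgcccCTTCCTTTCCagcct
Rpl23, chr11:97782425-97782454, minus strand: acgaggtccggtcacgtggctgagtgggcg
Rpl13, chr8:123102335-123102364, plus strand: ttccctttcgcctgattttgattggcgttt
Rps2, chr17:24720048-24720077, plus strand: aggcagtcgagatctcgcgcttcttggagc
Rps7, chr12:28635939-28635968, minus strand: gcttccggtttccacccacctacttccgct
Rpl41, chr10:128549154-128549183, minus strand: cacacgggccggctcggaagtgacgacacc
Rps6, Rpl35, Rpl14, Rplp2 and Rps10 begin with the run, and the other 5 do not at the annotated base. Such a start was found for 15 of the 59 members with a promoter entry (25.4%), against 813 of 27025 genes in the same table (3.01%). The letters CTTTCC, searched within 10 bases of the start on the gene's strand and overlapping the run where both occur, were found for 9 of the 59 (15.3%), against 269 of all genes (0.995%). An annotated start can lie some bases from the one used, so a window without the run says nothing about the message made here.

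The members differed widely in level. Divided by the length of the shortest principal transcript, the highest were Rplp1 (12511 normalised read counts per kilobase), a P stalk protein, Rpl41 (11345), whose product is the shortest protein of the ribosome, Rps15 (8606) and Rps2 (7790.0), which lines the channel where the message enters. The lowest were Rpl12 (222), Rps27 (227), Rps20 (497) and Rpl5 (663), which carries 5S ribosomal RNA into the large subunit together with Rpl11 (3614). The median member stood at 4186 per kilobase, with 1682 and 6687 at the 10th and 90th percentiles. Rps20 is divided by an annotated principal transcript of 3706 bases, long for this family, which lowers its level per kilobase. Rpl12 and Rpl5 are divided by 1242 and 2045 bases, against a median of 680.5 over the members. They also share 49.8% and 49.0% of the 31-base words of those transcripts with a gene listed in the table. How far length or shared reads lower these levels was not tested.

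Reads of many members can fit other genes as well. Ribosomal protein genes have many processed copies elsewhere in the genome, and the median member shared 63.2% of the 31-base words of its principal transcript with transcripts of other genes. Rps27 shared 98.7%. At least 50% was shared by 56 members, and by 18 with genes listed in the table. Values of members with a near-identical copy are therefore uncertain, and both kinds are counted apart for the main comparison below.

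Over the 56 libraries the mean log2 level of the 78 genes ranged from -0.27 to 0.30 relative to the mean of the libraries, with a pooled SD of 0.11 within groups. By group the order from high to low ran from WT fluoxetine females (0.10 ± 0.15, SD, n = 5) and HT vehicle females (0.09 ± 0.11, n = 5) through WT vehicle males (0.06 ± 0.10, n = 5), WT vehicle females (0.06 ± 0.08, n = 5), HT lithium males (0.04 ± 0.04, n = 4) and WT lithium males (0.02 ± 0.12, n = 5). Below these came HT fluoxetine females (-0.02 ± 0.07, n = 5), HT lithium females (-0.05 ± 0.10, n = 5), HT fluoxetine males (-0.05 ± 0.08, n = 5), WT fluoxetine males (-0.05 ± 0.13, n = 5), WT lithium females (-0.12 ± 0.10, n = 4) and HT vehicle males (-0.17 ± 0.15, n = 3). No neighbours in this order lay further apart than the SD within groups. In bulk tissue a lower level cannot be told apart from fewer cells that hold much ribosomal message.

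**Figure D1:**
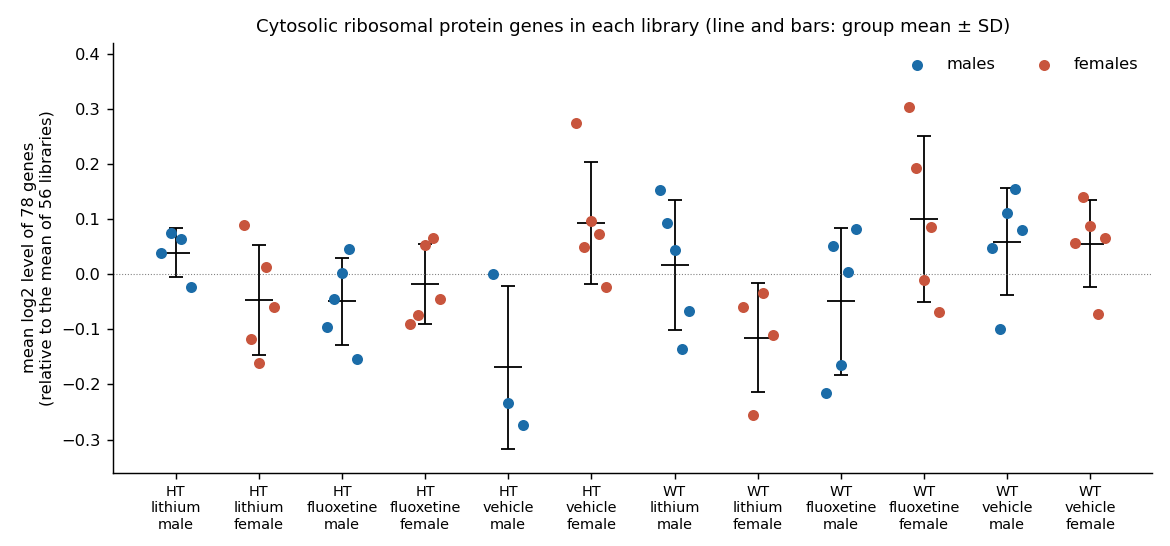
Mean log2 level of the 78 ribosomal protein genes in each of the 56 libraries, relative to the mean of all libraries, by genotype, drug and sex; points are libraries, bars the group mean ± SD. The groups overlap, WT fluoxetine females reach the highest single value (0.30) and HT vehicle males the lowest (-0.27).

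The level of the members moved with a property of the library as a whole. In each library the deviations of all other genes were fitted against transcript length, giving a slope in log2 units per doubling of length, and libraries in which long genes stood higher had lower ribosomal protein levels (Pearson r = -0.68, Spearman rho = -0.72 over 56 libraries, r = -0.67 without the 2 libraries farthest from the median slope, r = -0.61 for deviations from group means). Ribosomal protein messages are short, with a median longest transcript of 1054 bases against 3166 for all genes tested. The same relation was weaker for the slope on GC content (r = 0.42, rho = 0.44), and near 0 for the number of reads (r = 0.02, rho = 0.07). Markers were taken relative to their own means over libraries and averaged. This gave r = 0.33 and rho = 0.22 for olfactory bulb, and r = 0.32 and rho = 0.19 for choroid plexus. For the mean log2 level of mitochondrially encoded genes r was -0.27 and rho -0.38. These are descriptions across libraries that share groups. A correction of each library for its trends with GC content and length was one of the alternative settings, and it moved many of the counts below.

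**Figure D2:**
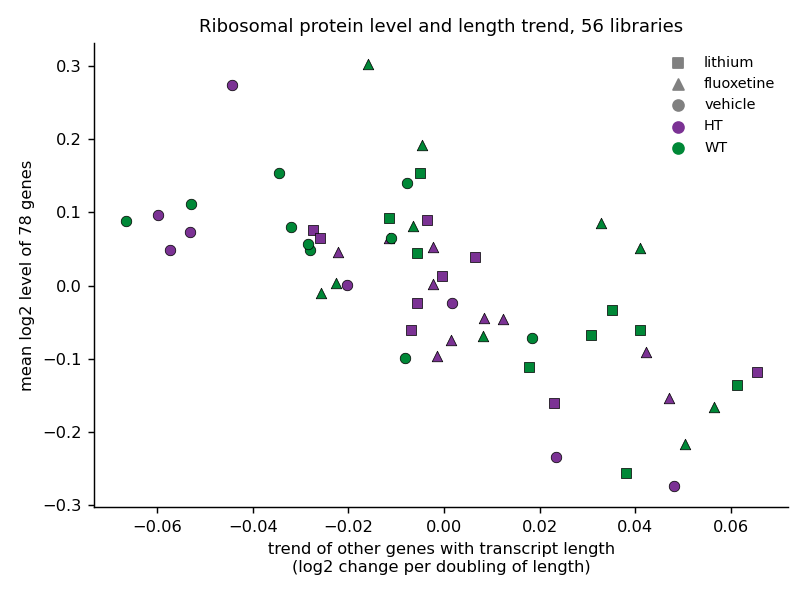
Mean log2 level of the 78 genes (vertical) against the trend of all other genes with transcript length (horizontal, log2 change per doubling of length) in 56 libraries; symbols give the drug and colours the genotype. Libraries to the right, where long genes stood higher, had lower ribosomal protein levels (r = -0.68).

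Lithium lowered part of the set in wild-type mice. With the sexes averaged, 19 of 78 members fell and 0 rose against vehicle, where 4.65% of all genes tested were called lower and 7.05% higher (limma-trend, adjusted p below 0.05). The median log2 change of the members was -0.12, against -0.0029 for all genes, and 67 of the 78 changes were negative. Genes of both subunits were called, 10 of 42 large-subunit and 9 of 33 small-subunit genes, and 0 of the 3 P stalk genes. Of the 19, 15 have a promoter entry, and 2 of these, Rps6 and Rpl35, begin with the pyrimidine run printed above. Of the 22 members that share under 50% of their 31-base words with other genes 6 fell, and of the other 56 members 13 fell.

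The 4 largest falls were in Rpl13, Rps2, Rpl23 and Rps6. Rpl13, a protein of the large subunit, had 4729, 4529.9, 3929.6, 3496 and 3554 normalised read counts in WT lithium males and 4021, 3348, 3508 and 3200.5 in WT lithium females, against 4825, 4241, 5262, 4954 and 4793 in WT vehicle males and 4552, 4911, 4780.3, 4003 and 4869.8 in WT vehicle females. In females 3 of the 4 lithium libraries lay below all vehicle libraries, and in males the groups overlapped. The log2 change was -0.33 ± 0.08 (SE), adjusted p = 0.00367.

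Rpl23, a large-subunit protein that can also bind the p53 regulator Mdm2, had 3661, 3273, 3071, 3071 and 3596 in WT lithium males and 3124, 2701, 3376 and 2857 in WT lithium females. The WT vehicle males had 3634, 3118, 3748, 3916 and 3871, and the WT vehicle females 3758, 4134, 3909, 4140.4 and 4002. All 4 female lithium libraries lay below all 5 female vehicle libraries, while the males overlapped. The log2 change was -0.27 ± 0.06, adjusted p = 0.00143.

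Rps2 fell by 0.29 on the log2 scale (SE 0.07, adjusted p = 0.00415), averaging 6961 ± 820.1 in WT lithium males (n = 5) and 6690.3 ± 488 in WT lithium females (SD, n = 4), against 8406 ± 559 in WT vehicle males and 8281 ± 1040.0 in WT vehicle females (n = 5 each). Rps6, the small-subunit protein that S6 kinases phosphorylate downstream of mTOR, averaged 3686 ± 282 in WT lithium males and 3707 ± 185 in WT lithium females, against 4185 ± 279 in WT vehicle males and 4411 ± 299.9 in WT vehicle females, a log2 change of -0.22 ± 0.06, adjusted p = 0.00901. The other members called included Rpl23a, Rps3a1, Rpl35, Rps23, Rps26, Rpsa, Rpl11, Rps25, Rps7, Rpl7, Rpl22, Rpl19, Rpl3 and Rpl4, with log2 changes between -0.21 and -0.13. Among them, Rps3a1 is the mouse gene of a small-subunit protein near the platform (-0.20 ± 0.05, adjusted p = 0.00354), Rpsa is also known as a laminin receptor (-0.19 ± 0.06, adjusted p = 0.0195), Rpl11 restrains Mdm2 when it is free of ribosomes (-0.18 ± 0.06, adjusted p = 0.0385) and Rpl22 is a large-subunit protein with a close paralog, Rpl22l1 (-0.17 ± 0.05, adjusted p = 0.0269).

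Of 10 microglia markers 3 fell in WT under lithium, of 6 endothelial markers 2 fell and of 8 astrocyte markers 1 rose, and their part in the result was not tested. Libraries of the compared groups differed in the length trend. Its slope averaged 0.014 ± 0.031 in WT lithium males and 0.033 ± 0.01 in WT lithium females, against -0.031 ± 0.016 in WT vehicle males and -0.019 ± 0.031 in WT vehicle females (SD). After the correction for GC content and length 5 members were called lower, and these 5, Rpl13, Rps2, Rpl23, Rps6 and Rpl23a, were also called under each of the other 9 alternative settings and without any single library. The share of all genes called with the correction is not given here, so that count cannot be set against it. The other 14 calls ended with that correction, and the median change became -0.06. Without WT lithium female replicate 2 the count was 10, and without WT lithium male replicate 4 it was 12.

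In heterozygous mice lithium gave no common direction when the sexes were averaged. Of the 78 members 2 rose and 2 fell, where 5.06% of all genes were called higher and 4.7% lower, and the median change was 0.03. Rpl36, a large-subunit protein, had 1299.7, 1494, 1472 and 1162 in HT lithium males and 1654, 1005, 927, 1309 and 1436 in HT lithium females, against 1007, 825 and 780.0 in HT vehicle males and 1299, 1167, 988, 1090.4 and 1046 in HT vehicle females. The males did not overlap, while 2 female lithium libraries lay below or within the female vehicle libraries. Its log2 change was 0.40 ± 0.12, adjusted p = 0.0201, and the call ended with the GC and length correction and without HT vehicle male replicate 3.

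Rplp2, which pairs with Rplp1 in the stalk, had 2743, 2845, 3118 and 2305 in HT lithium males and 3389.6, 2036, 1950.3, 2395 and 2809.6 in HT lithium females, against 2224, 1905 and 1738 in HT vehicle males and 2527, 2132, 2024, 2190.2 and 1939 in HT vehicle females. Again the males did not overlap and the females did. The log2 change was 0.34 ± 0.10, adjusted p = 0.0277. The call ended without any one of 6 libraries, HT lithium female replicates 1 and 5, HT lithium male replicates 2 and 3, and HT vehicle male replicates 2 and 3, with an adjusted p of at most 0.105.

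Rpl14 fell by 0.17 ± 0.05 (adjusted p = 0.0273) and the small-subunit gene Rps7 by 0.16 ± 0.05 (adjusted p = 0.0224). Both calls ended without the 2 libraries that stand apart, HT vehicle female replicate 1 and HT lithium female replicate 5, and that of Rps7 also with the GC and length correction. In HT vehicle female replicate 1 the choroid plexus markers averaged 22.9 times their mean over libraries. HT lithium female replicate 5 had a mean log2 level of mitochondrially encoded genes of -1.62 relative to the mean library. Its slope on GC content was 0.25 per 10 points. For Rpl14 leaving out HT vehicle female replicate 1 or HT vehicle male replicate 1 was enough, and for Rps7 HT lithium male replicate 3, HT vehicle female replicate 3 or HT vehicle male replicates 1 or 3. Rps7 was called lower under lithium in both genotypes with the sexes averaged. The count of 4 became 7 without HT lithium female replicate 5, 2 without HT lithium male replicate 3 and 1 without HT vehicle male replicate 3, and 7 with the olfactory level as a covariate.

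The test of the difference in lithium effect between the genotypes called 0 of 78 members and 0.0166% of all genes (limma-trend), and edgeR called 0. At an unadjusted p below 0.05 the count was 24 members, all with a higher change in HT, and 1712 of all 18026 genes. The median difference over the members was 0.15. The smallest p values belonged to Rpl23a (0.24 ± 0.08, adjusted p = 0.343), Rpl29 (0.23 ± 0.08, adjusted p = 0.357) and Rpsa (0.24 ± 0.08, adjusted p = 0.362). The genotypes were thus not shown to differ in any member.

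**Figure D3:**
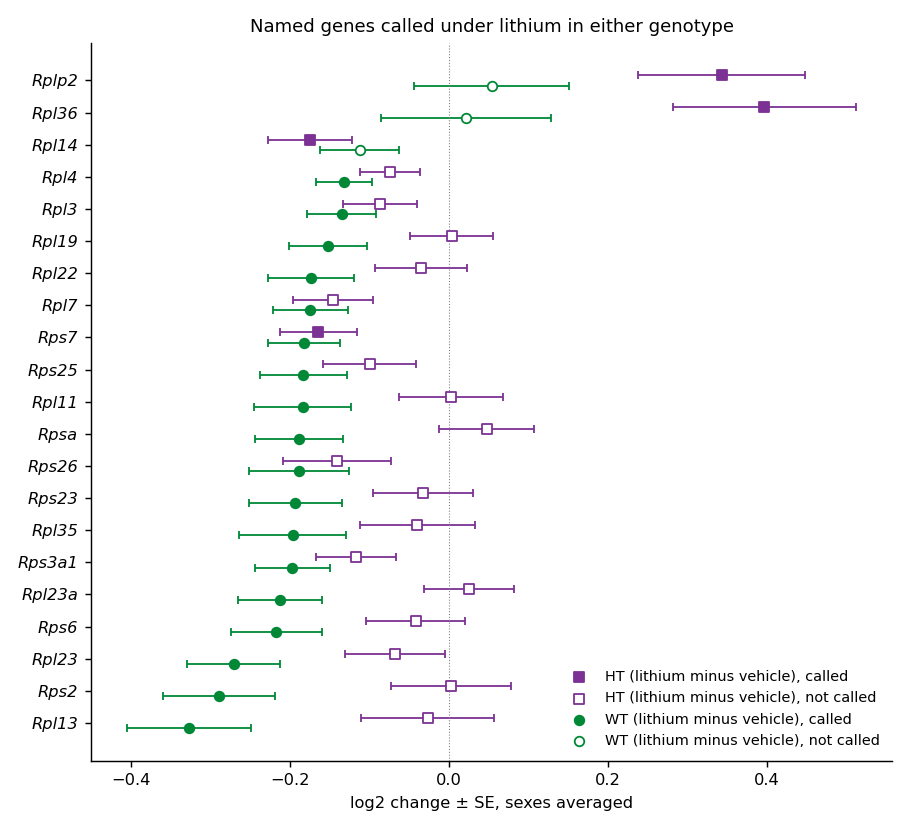
Log2 change ± SE under lithium, with the sexes averaged, for the named members called in either genotype (squares, HT; circles, WT; filled symbols, adjusted p below 0.05). All filled circles (WT) lie below 0, and of the 4 filled squares (HT) Rplp2 and Rpl36 lie above 0 and Rpl14 and Rps7 below.

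Within each sex the picture divided, as the plot of changes by sex shows. In females lithium lowered 13 of 78 members in HT mice (median -0.14, background 4.94% lower) and 16 in WT mice (median -0.18, background 2.77%). It raised 0 in both, where 5.56% of all genes were called higher in HT females and 3.85% in WT females. In males 0 members were called in HT (median 0.20, 37 higher and 0 lower at an unadjusted p below 0.05, 0 by edgeR, background 0.0166%) and 0 in WT (median -0.06, 3 higher and 8 lower unadjusted, 0 by edgeR, background 2.3%). The male count in WT was 2 without WT vehicle male replicate 2, and 1 without any one of HT lithium female replicate 5, WT fluoxetine female replicates 1, 3 and 5, WT fluoxetine male replicate 1 and WT lithium male replicate 3. The backgrounds given for males are shares called at the adjusted p. Unadjusted, 1954 of 18026 genes passed in HT males and 2816 in WT males, in either direction. The members lowered in females of both genotypes, which share no libraries, were Rpl9, Rps7, Rps23 and Rps25, 4 of the 13 and 4 of the 16. The number of all genes lowered in females of both genotypes is not given here, so this overlap cannot be set against it. The calls of all 4 members ended with the GC and length correction in HT females, and those of Rps23 and Rps25 in WT females. The correction ended 9 of the 13 calls in HT females and 9 of the 16 in WT females, and the medians were then -0.08 in HT females and 0.12 in HT males.

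**Figure D4:**
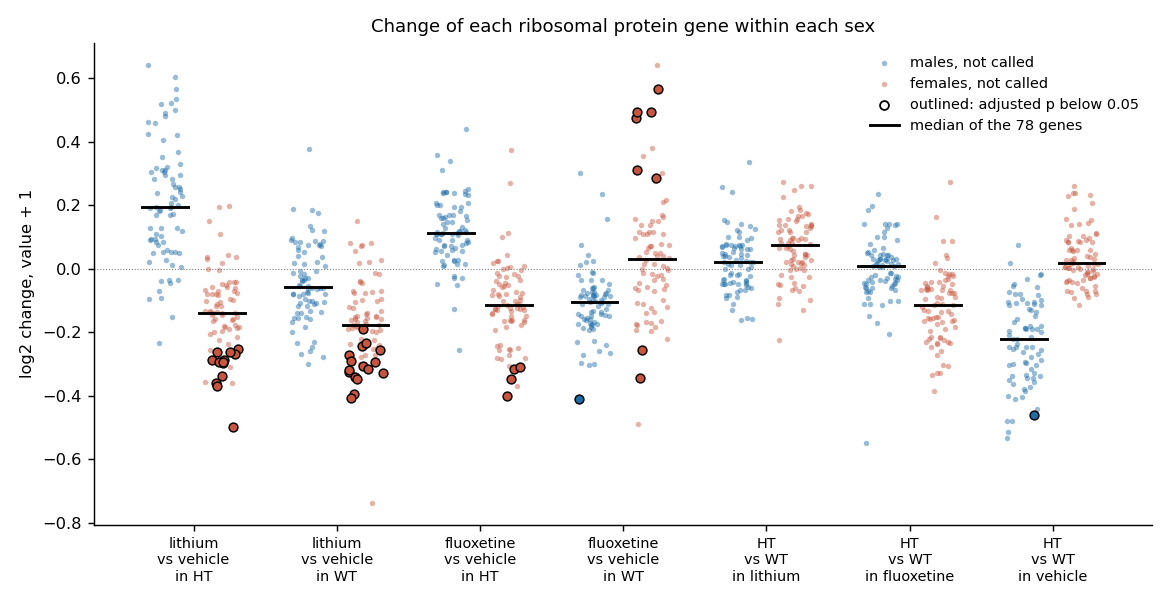
Log2 change of each of the 78 genes in males (blue) and females (red) for 7 comparisons; outlined points have an adjusted p below 0.05 and lines mark the median. Under lithium in HT the male median is 0.20 and the female median -0.14, and all outlined points of the lithium comparisons are in females and below 0.

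Rps7 was among the members called lower in females of both genotypes. It had 3534, 3885, 3659, 3714 and 3712 in HT lithium females, against 4953, 4269.7, 4924, 4476 and 4121 in HT vehicle females, with no overlap, a log2 change of -0.29 ± 0.06, adjusted p = 0.00108. In WT lithium females it had 3966, 3287, 3457 and 3230.5, against 4637, 4637, 4592, 3968 and 4294 in WT vehicle females, again with all lithium libraries lower, a log2 change of -0.35 ± 0.07, adjusted p = 0.00073. The HT lithium males ranged from 3477 to 3725, against 3519 to 3864 in HT vehicle males, and the WT lithium males from 3461 to 4107, against 3406 to 4061 in WT vehicle males, so the males overlapped in both genotypes. The call in HT females ended with the GC and length correction (adjusted p = 0.0805), while that in WT females held under every setting and without any library.

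In HT females the largest falls were in Rpl27 (-0.50 ± 0.13, adjusted p = 0.00868) and Rpl41 (-0.37 ± 0.10, adjusted p = 0.0138). Rpl27 had 1351, 1416, 1119.6, 1512 and 652 in HT lithium females, against 1924, 1611, 1592, 1473 and 1627 in HT vehicle females, and its call ended without HT lithium female replicate 5, the lowest of them, with the GC and length correction and with the compared groups alone. That library had the lowest value of all 56 for 12 members and the highest for 10. The call of Rpl41 held under every setting and without any library. The count in HT females was 4 without the 2 libraries that stand apart, 4 with the GC and length correction and 21 with the olfactory covariate. In WT females it was 9 with the GC and length correction, and 5 without WT lithium female replicate 2 or replicate 4. Of the cell type markers, 2 of 10 for microglia and 1 each for astrocytes, endothelium and cortical excitatory neurons rose in HT females and 1 of 9 for choroid plexus fell, while in WT females 2 of 6 for endothelium rose. Their part was not tested.

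The difference between the sexes was itself tested. For lithium in HT mice 5 members had a higher change in males than in females and 0 a lower one, where 0.161% of all genes were called higher and 0.0111% lower. The median difference was 0.33. They were Rpl41 (0.90 ± 0.16, adjusted p = 0.00258), Rps10 (0.67 ± 0.13, adjusted p = 0.0128), Rpl35a (0.66 ± 0.13, adjusted p = 0.0128), Rpl13a (0.55 ± 0.12, adjusted p = 0.0239) and Rps3 (0.44 ± 0.10, adjusted p = 0.0425). Rps3 lies at the entry of the message channel and Rps10 is a small-subunit protein that is tagged with ubiquitin when ribosomes collide. Fluoxetine, compared with the same HT vehicle libraries, gave differences of 0.64 for Rpl41, 0.51 for Rpl35a and 0.46 for Rpl13a. Those of Rps10 and Rps3 were 0.39 and 0.34, and none of the 5 was called (limma-trend, adjusted p from 0.175 to 0.485). For HT against WT the median male minus female difference was -0.27 under vehicle and -0.05 under lithium. The part of the shared vehicle libraries was not tested.

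Rpl41 had 5654, 6253, 5452 and 5023 in HT lithium males, against 4584, 3840.3 and 3228 in HT vehicle males, and 5159, 4464, 4491, 4971 and 4768 in HT lithium females, against 6257, 6477, 6507, 6465 and 5140.0 in HT vehicle females. The male lithium libraries lay above the 3 vehicle ones, while 4 of the 5 female lithium libraries lay below all female vehicle libraries. HT vehicle males were the smallest group and held low values: replicate 3 had the lowest value of all libraries for 19 members. Without that library 0 members were called in this difference, without replicate 2 of the same group 1, and without replicate 1 there were 12. The count was 3 without HT lithium female replicate 3, HT lithium male replicate 1 or 2, or HT vehicle female replicate 3 or 4, and 8 without HT vehicle female replicate 5. The compared groups alone gave 1 and the GC and length correction 2, and that correction ended the calls of Rpl13a, Rpl35a and Rps10. Of the cell type markers, 1 of 8 for cortical excitatory neurons, Cux2 (0.37 ± 0.10, adjusted p = 0.0114), 1 of 6 for endothelium, Flt1 (0.33 ± 0.08, adjusted p = 0.00764), and 1 of 10 for microglia, Csf1r (0.25 ± 0.08, adjusted p = 0.0338), rose under lithium in HT with the sexes averaged, and all 3 calls ended with the GC and length correction. In the other lists 0 were called, with median changes that included -0.35 over 8 oligodendrocyte, -0.59 over 9 choroid plexus and -0.40 over 5 olfactory bulb markers. HT vehicle female replicate 1, with choroid plexus markers at 22.9 times their mean, is among the vehicle libraries. These marker values average the sexes and do not give the difference between them. The part of the markers in these results was not tested. The slope on length averaged -0.013 ± 0.016 in HT lithium males and 0.016 ± 0.03 in HT lithium females, against 0.017 ± 0.035 in HT vehicle males and -0.043 ± 0.025 in HT vehicle females (SD).

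For lithium in WT mice 0 members differed between the sexes (median 0.12, 15 higher in males at an unadjusted p below 0.05, 0 by edgeR, background 0%). At that unadjusted threshold 1556 of 18026 genes passed. Without WT vehicle female replicate 4 the count of called members was 1. The female falls in WT mice were therefore not shown to differ from the male changes.

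Fluoxetine moved few members. In HT mice 0 were called (median 0.0018, 1 higher and 3 lower at an unadjusted p below 0.05, 0 by edgeR), as were 0% of all genes. The unadjusted threshold was passed by 1307 of 18026 genes. The smallest p values there belonged to Rpl14 (-0.14 ± 0.05, adjusted p = 0.459), Rpl10 (0.36 ± 0.13, adjusted p = 0.475) and Rps7 (-0.12 ± 0.05, adjusted p = 0.548).

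In WT mice Rpl10 rose and Rps7 fell under fluoxetine, where 3.19% of all genes were called higher and 1.99% lower, with a median of -0.05 over the members. Rpl10, an X-linked gene whose protein joins the large subunit late in its assembly, had 963, 1356, 1197, 1634 and 1238 in WT fluoxetine males and 1438, 1475, 1179, 1222 and 1201 in WT fluoxetine females. The WT vehicle males had 1320.4, 891, 877, 1173 and 914, and the WT vehicle females 956, 1034, 893, 796 and 729.9. The females did not overlap and the males did. The log2 change was 0.44 ± 0.12, adjusted p = 0.0271, and leaving out any one of WT fluoxetine female replicate 2, WT fluoxetine male replicate 4 or WT vehicle male replicates 2, 3 or 5 ended the call.

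Rps7 changed by -0.17 ± 0.04 (adjusted p = 0.0147), a call that ended with the GC and length correction and with the compared groups alone. The fluoxetine and lithium comparisons of 1 genotype share their vehicle libraries. Against the same WT vehicle mice the change of Rps7 was -0.18 under lithium and -0.17 under fluoxetine. The count of 2 became 1 without each of the libraries that ended the call of Rpl10, and 7 when WT fluoxetine female replicate 1 was left out. It became 4 both when WT vehicle female replicate 4 and when the 2 libraries that stand apart were left out. Of the cell type markers in WT mice under fluoxetine, 4 of 8 oligodendrocyte markers (median -0.63) and 2 of 10 microglia markers fell, and their part was not tested.

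Within sexes, fluoxetine raised 6 members in WT females (Rpl8, Rpl28, Rpl37, Rplp1, Rps29 and Rpl10, log2 changes 0.29 to 0.57, background 5.66%) and lowered 2, Rpl9 (-0.34 ± 0.07, adjusted p = 0.00204) and Rps7 (background 6.48%). At 7.69% of the members the rises lie near the share of all genes, and at 2.56% the falls lie below it. Rpl9 had 3673, 3251, 2925, 3259 and 3255 in WT fluoxetine females, against 4519, 4553, 4211, 3172 and 4414 in WT vehicle females, where replicate 4 lay within the fluoxetine range and the other 4 above it. Its call held under every setting and without any library. That of Rps7 ended with the GC and length correction. Of the rises only those of Rpl10, Rpl37 and Rps29 kept their call with it, and each of the 6 ended without at least 1 library. The count of 8 was 2 without WT fluoxetine female replicate 2 and 4 without WT vehicle female replicate 4 or 5.

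In HT females fluoxetine lowered 4 members, Rpl41, Rpl9, Rpl13a and Rps7 (log2 changes -0.40 to -0.31, background 0.333%). The GC and length correction ended the calls of Rpl9 and Rps7, the compared groups alone those of Rpl13a and Rpl41, and leaving out the 2 libraries that stand apart those of Rpl9 and Rpl41. The count was 0 without HT fluoxetine female replicate 5 or HT vehicle female replicate 3, 1 without HT vehicle female replicate 1, 2 without HT fluoxetine female replicate 2 or HT vehicle female replicate 2 or 4, and 7 without HT vehicle female replicate 5. In WT males 1 member, Rpl13, fell (-0.41 ± 0.11, adjusted p = 0.0421, background 0.394% lower and 0.632% higher), with 3094, 3443, 2827, 4245 and 4829 in WT fluoxetine males, against 4825, 4241, 5262, 4954 and 4793 in WT vehicle males. That call was lost in edgeR, in limma without the trend, with the compared groups alone, with the GC and length correction, and without any one of 7 libraries, WT fluoxetine male replicates 1, 2 and 3 and WT vehicle male replicates 1, 3, 4 and 5. The count was 3 without WT fluoxetine male replicate 5 and 2 without WT vehicle male replicate 2. In HT males 0 members were called (median 0.11, 8 higher at an unadjusted p below 0.05, 0 by edgeR, background 0%). The unadjusted threshold was passed by 644 of 18026 genes there.

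The sexes differed in the effect of fluoxetine in WT mice for 6 members. The change in males was lower than in females for 5 members, among them Rpl37 (-0.65), Rpl28 (-0.58), Rpl13 (-0.46) and Rpl8 (-0.43), where 3.16% of all genes were called lower. It was higher for Rpl9 (0.39, background 4.58%), and the median difference was -0.15. Both directions together, the 6 members are near the share of all genes called there. With the GC and length correction 0 were called and with the compared groups alone 1. Leaving out 1 library gave 2 to 15: 2 without WT fluoxetine female replicate 1 or 2, WT fluoxetine male replicate 1 or WT vehicle male replicate 4, and 3 without WT fluoxetine male replicate 3, WT vehicle female replicate 1 or 4 or WT vehicle male replicate 3. It gave 10 and 15 without WT fluoxetine female replicates 3 and 5, 11 without WT fluoxetine male replicate 5 and 12 without WT vehicle male replicate 2. The olfactory bulb markers were each taken relative to their own mean over libraries and averaged. This level spread from 0.0769 to 4.41 in WT fluoxetine females and from 0.0796 to 1.68 in WT fluoxetine males. It spread from 0.121 to 2.27 in WT vehicle females and from 0.4 to 2.27 in WT vehicle males. Of the 5 markers 1 was at 0 in at least 1 library and 0 were at 0 in all, and their part in the result was not tested beyond the covariate. For fluoxetine in HT mice 0 members differed between the sexes (median 0.21, 19 higher in males unadjusted, 0 by edgeR, background 0.0277%). Unadjusted, 1194 of 18026 genes passed there. The difference between HT and WT in the fluoxetine effect called 0 members (0 at an unadjusted p below 0.05, 0 by edgeR, background 0%), with the smallest p for Rpl12 (-0.20 ± 0.11, adjusted p = 1), Rps3 (0.11 ± 0.07) and Rps6 (0.13 ± 0.08).

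Genotype alone gave no called member with the sexes averaged, and no called gene at all. HT against WT had 0 of 78 under lithium (median 0.04, 6 higher unadjusted), 0 under fluoxetine (median -0.05, 1 lower unadjusted) and 0 under vehicle (median -0.09, 14 lower unadjusted), with a background of 0% in each by limma-trend and 0 members by edgeR. Unadjusted, 1771 of 18026 genes passed under lithium, 2023 under fluoxetine and 1119 under vehicle. The smallest p values were those of Rps2 (0.24 ± 0.07, adjusted p = 0.269), Rpl6 (0.12 ± 0.05) and Rpl29 (0.14 ± 0.05) under lithium. Under fluoxetine they included those of Rpl8 (-0.14 ± 0.06, adjusted p = 0.415) and Rpl37 (-0.18 ± 0.10). Under vehicle they were those of Rpl23a (-0.17 ± 0.06, adjusted p = 0.718), Rps10 (-0.18 ± 0.06) and Rps23 (-0.17 ± 0.06).

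Among vehicle males 1 member, Rps10, was lower in HT than in WT. It had 1840.3, 1567 and 1545 in HT vehicle males, against 2227, 2066, 2295, 2372 and 2382 in WT vehicle males, with no overlap, a log2 change of -0.46 ± 0.10, adjusted p = 0.0227 (background 0.105%). The median over the members was -0.22 in males, with 40 lower at an unadjusted p below 0.05, and 0.02 in females, with 2 higher. That threshold was passed by 2248 of 18026 genes in males and 385 in females. Of the 3 HT vehicle males, replicates 2 and 3 had mean member levels of -0.23 and -0.27, the lower end of all libraries, and replicate 1 had 0.00048. The call ended with the GC and length correction and without HT vehicle male replicate 2 or 3 or WT vehicle male replicate 3, 4 or 5, and without HT vehicle male replicate 1 the count was 3. The test of the difference between the sexes called 0 members (30 lower in males unadjusted, 0 by edgeR), and 1574 of 18026 genes passed unadjusted. In males 0 members were called under lithium (2 higher unadjusted, background 0%) or fluoxetine (3 higher and 1 lower unadjusted, background 0.00555%), and 0 by edgeR. Unadjusted, 2143 of 18026 genes passed in males under lithium and 976 under fluoxetine. In females 0 members were called under lithium, fluoxetine or vehicle (under fluoxetine 19 lower unadjusted, median -0.11, background 2.56%), though 10 were called under fluoxetine without WT fluoxetine female replicate 5 and 5 without replicate 3. Under fluoxetine 4165 of 18026 genes passed unadjusted in females. The difference between the sexes in that comparison called 0, and 5 without WT fluoxetine female replicate 5.

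Males and females, compared over the 6 genotype and drug groups, gave 0 called members (median -0.04, 18 lower in males unadjusted, 0 by edgeR), where 0.283% of all genes were called. Unadjusted, 2321 of 18026 genes passed. The count of called members was 2 with the GC and length correction, and without HT vehicle male replicate 1 or WT vehicle female replicate 4 it was 1. The smallest p values belonged to Rpl9 (-0.12 ± 0.03, adjusted p = 0.0817), Rpl13a (-0.11 ± 0.03, adjusted p = 0.111) and Rps3 (-0.09 ± 0.03, adjusted p = 0.111). The 4 X-linked members gave changes of -0.0029 ± 0.04 for Rps4x, 0.01 ± 0.06 for Rpl36a, 0.07 ± 0.07 for Rpl39, which lines the exit tunnel, and 0.08 ± 0.07 for Rpl10, none of them called.

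Several members of known special roles were not called with the sexes averaged. Rplp0, the base of the stalk, and Rplp1 had lithium changes of 0.02 ± 0.06 and 0.22 ± 0.12 in HT and -0.09 ± 0.06 and 0.09 ± 0.11 in WT, not called. Fau and Rps27a, which are made as fusions with a ubiquitin-like protein and with ubiquitin, had 0.08 ± 0.08 and 0.01 ± 0.06 in HT and -0.19 ± 0.07 and -0.13 ± 0.06 in WT, not called, although Rps27a fell in WT females (-0.34 ± 0.09, adjusted p = 0.0114), a call that ended with the GC and length correction. Rps19, the gene mutated most often in human Diamond-Blackfan anaemia, had 0.18 ± 0.09 in HT and -0.01 ± 0.08 in WT, and Rpl5 had -0.19 ± 0.08 in HT and -0.15 ± 0.08 in WT, also not called.

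Rps27, on chromosome 3, encodes a zinc-finger protein of the small subunit, and Rps27rt, on chromosome 9, is a retrogene copy annotated as protein coding and also 1 of the 78. The starts of both begin with the pyrimidine run and then continue alike.
Rps27, chr3:90213634-90213663, minus strand: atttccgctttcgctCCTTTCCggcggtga
Rps27rt, chr9:114982725-114982754, minus strand: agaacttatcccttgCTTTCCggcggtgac
In the first 50 transcribed bases they share a run of 38 bases, from base 2 of Rps27 and base 1 of Rps27rt. Rps27 had a median of only 50.4 normalised read counts (38.3 to 346), and Rps27rt a median of 1319 (301 to 1620). Where Rps27 was high Rps27rt was low: WT fluoxetine female replicate 1 had the highest Rps27 (346) and the lowest Rps27rt (301), and the deviations from group means correlated at -0.78 over the 56 libraries. The values of each alone cannot be read as the output of 1 locus, since reads that fit both can be given to either.

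**Figure D5:**
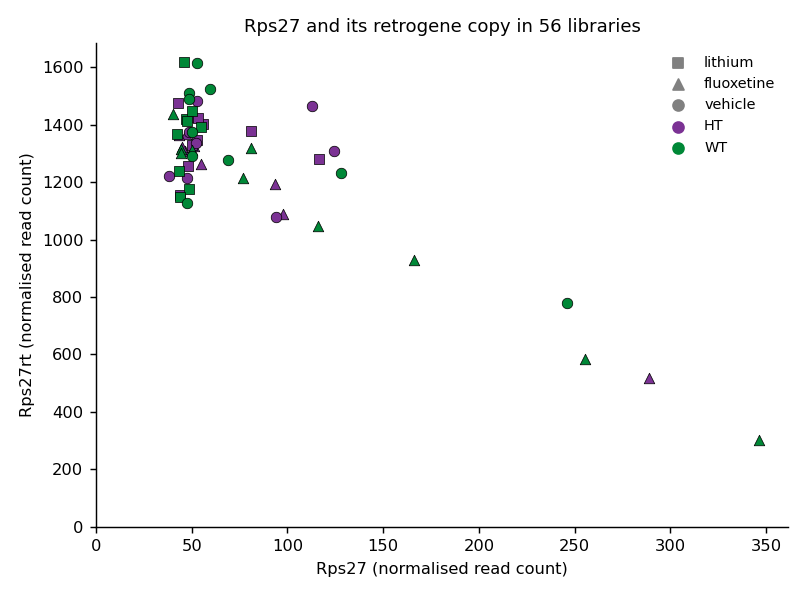
Normalised read counts of Rps27rt (vertical) against Rps27 (horizontal) in 56 libraries; symbols give the drug and colours the genotype. Most libraries sit near 50 for Rps27 and above 1000 for Rps27rt, and the highest Rps27 value (346) meets the lowest Rps27rt value (301).

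Rpl10 also moved against its listed copy Rpl10-ps3, which the annotation calls protein coding and the rule left out by its symbol, and with which it shares 92.3% of its 31-base words. Rpl10 ranged from 540.1 to 1634 and the copy from 1997 to 3550.4, with r = -0.44 for deviations from group means, and the SD of the log2 sum of the pair was 0.09, against 0.34 for Rpl10 alone. The rise of Rpl10 under fluoxetine is therefore uncertain as a change of that gene. Rpl15 ranged from 2434 to 5207, while Rpl15-ps3 was listed at 0 in 38 of 56 libraries and reached 2410.2 in others (r = -0.38). Rps12 ranged from 1471 to 3282, while Rps12-ps3 was listed at 0 in 45 libraries and reached 824 in others (r = -0.46). Over the 8 pairs of a member and a listed copy that were compared, r ran from -0.78 to 0.58. It was above 0 for 3, Rpl37 and Rpl37rt (0.58), Rpl31 and Rpl31-ps8 (0.29) and Rpl36a and Rpl36a-ps2 (0.11).

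Most members moved together from library to library within groups. The correlation of a gene's deviations from its group means with the mean of the other members had a median of 0.70, and 63 of 78 exceeded 0.5. The highest was that of Rpl8 (0.91), which shares only 9.99% of its 31-base words with other genes. The lowest were Rps27rt (-0.24), Rpl10 (0.23), Rpl15 (0.26), Rpl5 (0.30) and Rps27 (0.31), 4 of which have a copy listed in the table with which most of their words are shared. Outside the set, the protein-coding genes whose deviations were most like the members' mean, of 14872 candidates over 56 libraries, were Phpt1 (r = 0.84), Bloc1s1 (0.79), Rack1 (0.77), Uqcrh (0.76), Snrpd2 (0.75), Dnal4 (0.74), Rnd2 (0.73), Arpc1b (0.73), S100a1 (0.73) and Snrpg (0.72). Rack1 is a scaffold on the small subunit, Uqcrh a subunit of respiratory complex III, and Snrpd2 and Snrpg are core spliceosomal proteins.

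Other gene families, taken by symbol, moved with lithium in WT mice too. Of 78 mitochondrial ribosomal protein genes 14 fell and 0 rose (median -0.10), of 40 proteasome subunits 11 fell (median -0.10), and of 77 nuclear-encoded subunits of oxidative phosphorylation 7 fell (median -0.06), where 4.65% of all genes were called lower. The fall under lithium is thus not shown to be a property of the cytosolic set alone. In HT mice 8 of 78, 14 of 40 and 7 of 77 fell, with 1 rise among the last (background 4.7% lower and 5.06% higher). With the GC and length correction the falls numbered 9, 4 and 1 in WT and 4, 5 and 1 in HT.

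Genes that work with the ribosome were counted from lists. Of 35 translation initiation factors lithium lowered 14 and raised 1 in HT (median -0.09; background 4.7% lower and 5.06% higher) and lowered 10 and raised 0 in WT (median -0.07; background 4.65% lower and 7.05% higher). With the GC and length correction the counts were 5 lower in HT and 10 lower in WT. Eif3e, a subunit of eIF3, which gathers the initiation complex, fell in both genotypes (-0.37 ± 0.07 in HT, adjusted p = 0.000362, and -0.27 ± 0.06 in WT, adjusted p = 0.00314), and both calls held under every setting and without any library. In HT the eIF2 subunits Eif2s2 (-0.28 ± 0.05, adjusted p = 0.000468) and Eif2s3x (-0.17 ± 0.03, adjusted p = 0.00109), which bring the initiator tRNA, also fell in every setting, and the helicase Eif4a2 (-0.26 ± 0.05, adjusted p = 0.000409) lost its call with the correction. In WT Eif3h (-0.16 ± 0.03, adjusted p = 0.000201) and Eif4h (-0.19 ± 0.05, adjusted p = 0.00777) were called in every setting, and Eif3m (-0.17 ± 0.04) not with the correction.

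Of 8 elongation factors 1 rose in HT, Eef1d (0.17 ± 0.05, adjusted p = 0.0252, background 5.06% higher), and 3 fell in WT (background 4.65% lower). The call of Eef1d ended with the compared groups alone and without any one of 4 libraries. Eif5a, which frees ribosomes stalled on proline-rich stretches, fell in WT in every setting (-0.17 ± 0.03, adjusted p = 0.000291), while the calls of Eef1a1 (-0.13 ± 0.04) and Eef1b2 (-0.14 ± 0.05) ended with the correction. Leaving out any one of 10 libraries also ended that of Eef1a1, and any one of 10 that of Eef1b2. Of 25 other genes known to carry TOP messages, some of them elongation or initiation factors already counted, 2 rose and 3 fell in HT (median -0.04; background 5.06% higher and 4.7% lower), and 0 rose and 6 fell in WT (median -0.11; background 7.05% higher and 4.65% lower). They included the non-coding host gene Snhg8 in HT (0.34 ± 0.10, adjusted p = 0.026) and Npm1 in WT (-0.17 ± 0.05, adjusted p = 0.0321, lost with the correction). The call of Snhg8 ended without any one of 4 libraries, and that of Npm1 without any one of 7. Of the 9 relatives and paralogs outside the rule that were tested, among them Rpl22l1 and Rack1, 0 were called in either genotype (limma-trend).

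Among 50 ribosome assembly genes 4 rose and 3 fell in HT (background 5.06% higher and 4.7% lower), and 2 rose and 6 fell in WT (background 7.05% higher and 4.65% lower). The counts in HT and the rises in WT lie near or below what these shares of all genes would give. Nmd3, the export adapter of the large subunit, fell in both genotypes (-0.28 ± 0.05 in HT, adjusted p = 0.000421, and -0.22 ± 0.05 in WT, adjusted p = 0.00126) under every setting and without any library. The same held for Wdr75 in HT (-0.24 ± 0.05, adjusted p = 0.000511) and for the nucleolar protein Ncl in WT (-0.19 ± 0.05, adjusted p = 0.00726). Tcof1 (0.30 ± 0.06) and Nop2 (0.22 ± 0.05) in HT and Polr1a (0.21 ± 0.05), the largest subunit of RNA polymerase I, in WT rose, and all of these rises were lost with the correction. Nsa2, a large-subunit assembly factor, was called lower in WT (-0.15 ± 0.05, adjusted p = 0.023), a call that ended without 1 single library.

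Of 20 growth-control genes 2 rose in HT (background 5.06% higher and 4.7% lower), and 4 rose and 1 fell in WT (background 7.05% higher and 4.65% lower). Tsc2, which restrains mTOR complex 1, rose in both genotypes (0.21 ± 0.05 in HT, adjusted p = 0.00238, lost with the correction, and 0.23 ± 0.04 in WT, adjusted p = 0.000288, called in every setting). Its partner Tsc1 (0.19 ± 0.04, adjusted p = 0.00179) and Mtor itself (0.16 ± 0.05, adjusted p = 0.0416) rose in WT, Rheb, which activates mTOR complex 1, fell there (-0.15 ± 0.05, adjusted p = 0.0409), and Larp1, which binds TOP messages, rose in both (0.17 ± 0.05 in HT, adjusted p = 0.018, and 0.14 ± 0.05 in WT, adjusted p = 0.045). The calls of Tsc1, Mtor and Larp1 in either genotype ended with the GC and length correction, and that of Rheb with the compared groups alone. In WT the calls of Rheb and Mtor each ended without any one of 11 libraries, and that of Larp1 without any one of 14. Library factors recomputed from the values also ended those of Mtor and Larp1 in WT, and edgeR that of Larp1. In HT that of Larp1 also ended with the compared groups alone, without the 2 libraries that stand apart and without 1 single library. Of 14 genes of ribosome quality control and stress 3 rose in HT and 2 in WT and 0 fell, where 5.06% of all genes were called higher in HT and 7.05% in WT. These were Eif2ak3, Zfp598, which senses collided ribosomes, and Hbs1l in HT, and Ltn1 (0.25 ± 0.04, adjusted p = 5.92e-05, called in every setting) and Eif2ak4 in WT. Among these 5, the GC and length correction ended the calls of Eif2ak3, Zfp598 and Eif2ak4. The call of Hbs1l ended with the compared groups alone, without the 2 libraries that stand apart and without any one of 8 libraries. The compared groups alone also ended those of Eif2ak3 and Eif2ak4, and any one of 9 libraries left out that of Eif2ak4. For Zfp598 either of 2 libraries left out was enough.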

How the data were processed

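RNA of prefrontal cortex was sequenced after library preparation that, per the labels, used the TruSeq Stranded mRNA chemistry. The submitters' processing notes name Salmon 0.11.2, R 3.6.0, DESeq2 1.19.11 and build GRCm38. The deposited values are signal: gene counts that the authors divided by 1 size factor per library, since every value was a whole multiple of 1 step per library within 1e-06 (100% of values). The whole reads were recovered from these steps. Of 59 columns 56 matched 1 sample of the labels and 3 matched none and were not used. WT lithium female replicate 5 is not analysed here.

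Log2(value + 1) was tested with limma-trend (limma 3.58.1, R 4.3.3; two-sided) in 1 fit of 12 groups with 44 residual degrees of freedom, keeping genes that reached 10 in 3 or more libraries, with Benjamini-Hochberg adjustment over 18026 genes and calls below 0.05. Fold changes on this scale understate changes of low genes. The alternatives were 10 other settings, among them edgeR 4.0.16 quasi-likelihood on the recovered reads, and leaving out each of 56 libraries. Counts within each sex were added after the data were seen. The scripts were tested on simulated data. Over 105 pairs of replicates the counts differed by a chi-square of 4.94 or more per degree of freedom, so no library was counted as a duplicate.

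The members and gene lists were chosen with earlier results of these data known. Named were up to 4 called members with the largest rise and fall per comparison, or the 3 smallest p values, a fixed list of 18 members, the extremes of level and of likeness, and up to 4 called genes per translation list; others, including those named within sexes and the copies, were chosen after their values were seen. Some members enter the counts but are not reported by name here. Of the gene identifiers, 18077 of 18088 matched a symbol. Levels per kilobase use the shortest principal transcript, in place of the longest planned, because long annotated transcripts understate short messages. Start sequences and transcript lengths come from RefSeq and the reference annotation, RefSeq with build GRCm38.p6.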

Additional observations from a re-analysis of the deposited data

Results flagged for a closer look

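Of 154 tests for a single library far from the rest of its group, 15 found one, where chance gives about 1 in 20. HT vehicle female replicate 1 had 1.05% of its reads in the 78 genes, against 0.843% to 0.887% in the others of its group, and 4568 normalised read counts of Rpl23, against 3526 to 3684. Rpl10 stood at 1447.5 in HT fluoxetine male replicate 2, against 985 to 1053. Rpl41 was low in HT vehicle female replicate 5 (5140.0, the others 6257 to 6507) and in WT vehicle female replicate 4 (4276, the others 5406 to 5827). WT vehicle female replicate 4 was also low in Rps2 (6511, the others 8319 to 9042).

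Rps27 was high in 1 library of 5 groups: 289 in HT fluoxetine female replicate 4, 116 in HT lithium male replicate 2, 255 in WT fluoxetine male replicate 2, 246 in WT vehicle female replicate 2 and 128 in WT vehicle male replicate 3. Its copy Rps27rt was low in WT fluoxetine male replicate 2 (584, the others 1213 to 1436). Rpl15 was low in HT fluoxetine female replicate 5 (3867), HT lithium female replicate 5 (2434) and WT lithium female replicate 2 (3707).

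The effect of lithium in HT mice differed between males and females for 5 members by the test of that difference: Rpl41 (0.90 on the log2 scale, male minus female), Rps10 (0.67), Rpl35a (0.66), Rpl13a (0.55) and Rps3 (0.44), where 0.161% of all genes were called higher and 0.0111% lower. The count was 0 without HT vehicle male replicate 3 and 2 with the GC and length correction. Fluoxetine against the same HT vehicle libraries gave differences of the same direction for these 5 (0.34 to 0.64), none of them called. The effect of fluoxetine in WT mice differed for 6, among them Rpl37 (-0.65), Rpl28 (-0.58), Rpl13 (-0.46), Rpl8 (-0.43) and Rpl9 (0.39). This is near the share of all genes called there, 4.58% higher and 3.16% lower, and all 6 calls ended with the GC and length correction.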

How the results depend on the processing

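Medians over the members moved by less than the SD between libraries under all 10 settings, but that SD is about as large as most medians. With the GC and length correction, medians of 0.1 or more moved by over 1.5 times to -0.06 for lithium in WT (main -0.12), -0.08 for lithium in HT females (-0.14), 0.12 in HT males (0.20), 0.08 for the genotype difference in the lithium effect (0.15), -0.03 for fluoxetine in WT males (-0.10), -0.06 for its sex difference (-0.15), -0.04 for fluoxetine in HT females (-0.11), and -0.14 for HT against WT vehicle males (-0.22) and -0.17 for its sex difference (-0.27). Without the 2 libraries apart the median for fluoxetine in HT females was -0.06. No called value changed sign. Counts of called members moved by more than 1.5 times as follows, and the cause was not tested. The share of all genes called under each of these settings is not given beside them. With the GC and length correction they were 5 for lithium in WT (main 19), 9 in WT females (16), 4 in HT females (13), 2 for the sex difference of lithium in HT (5), 1 for fluoxetine in WT (2), 0 in WT males (1), 5 in WT females (8), 0 for the sex difference of fluoxetine in WT (6), 2 for fluoxetine in HT females (4), 0 for HT against WT vehicle males (1) and 2 for males against females (0). With the compared groups alone they were 1 for the sex difference of lithium in HT, 1 for fluoxetine in WT, 0 in WT males, 5 in WT females, 1 for its sex difference, 2 for fluoxetine in HT females and 2 for HT against WT vehicle males. With the olfactory covariate they were 2 for lithium in WT males (0), 7 for lithium in HT (4), 1 in HT males (0), 21 in HT females and 2 for fluoxetine in WT males. Without the 2 libraries apart they were 1 for lithium in WT males, 4 in HT females, 4 for fluoxetine in WT and 2 for fluoxetine in HT females. Limma without the trend and edgeR gave 0 for fluoxetine in WT males.

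The replicate numbers did not pair the samples: 9 of 61 same-number pairs correlated above 0.1 (-0.327 to 0.452), and in 0 of 14 sets did every pair. With the replicate number as a block the count was 19 for lithium in WT, 0 for fluoxetine in WT males and 1 for males against females.

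Leaving out 1 library gave 10 to 22 for lithium in WT, 0 to 2 in males and 5 to 19 in females; 1 to 7 in HT and 10 to 17 in HT females; 1 to 7 for fluoxetine in WT, 0 to 3 in males and 2 to 12 in females; and 0 to 7 for fluoxetine in HT females. Sex differences gave 0 to 1 for lithium in WT, 0 to 12 for lithium in HT, 2 to 15 for fluoxetine in WT and 0 to 5 for HT against WT under fluoxetine. HT against WT gave 0 to 3 in vehicle males and 0 to 10 in fluoxetine females, males against females 0 to 1, and the other comparisons 0 to 0. Depth limits little here, since 75 of 78 members averaged over 1000 normalised read counts, but reads shared with copies limit Rps27, Rpl10, Rpl15 and Rps12. Other members are open to the same limit. Of the 5 called lower in WT under every setting, Rps2 shares 85.3% of its 31-base words with other genes and Rps6 84.9%. Rpl23a shares 83.2%, Rpl13 80.8% and Rpl23 40.7%. These 5 were not compared with their copies.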
